A study of Mus musculus with 44 samples.

Results

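The comparison described here set the brains of mice given ACTH and then gratified against the brains of untreated control mice, each brain taken without its hypothalamus. ACTH, adrenocorticotropic hormone, is the pituitary hormone that makes the adrenal cortex release corticosteroids. The arrays were chosen by their labels alone: 5 arrays labelled as ACTH treated and gratified and 4 labelled as control, 9 of the 44 arrays of the series. All 9 carry the rest-of-brain RNA of adult male C57/Bl6 mice.

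The series covered 2 tissues of the same kind of mouse, the brain without hypothalamus (21 arrays) and the hypothalamus (23 arrays), and in each tissue ACTH or furosemide, a diuretic that makes the kidney lose salt, was given with or without gratification. Both agents are used in studies of sodium appetite, in which gratification means that the animal drinks salt solution. The sources used here give no dose, no timing and no form of the gratification. Cy5 marked the RNA of the tissue and Cy3 a universal mouse reference RNA on the same array, so that each value is a log2 ratio of brain over reference, and a positive value means more signal in the brain than in the reference.

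Sodium balance in cells is set by the sodium pump, Na,K-ATPase, which is built from a catalytic alpha and a glycosylated beta subunit and uses much of the ATP that neurons make by oxidative phosphorylation. Corticosteroids act on the brain through the glucocorticoid receptor (Nr3c1) and the mineralocorticoid receptor (Nr3c2), and astrocytes, oligodendrocytes, microglia and neurons all respond to them. Tissue like this mixes all of these cells, so fewer cells of a type and less RNA per cell cannot be told apart.

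The 9 arrays were similar in centre and spread. Their median log2 ratios ran between −0.22 and −0.17 on the gratified arrays and between −0.23 and −0.16 on the control arrays. The SD over features ran between 0.739 and 0.751 on the gratified arrays and between 0.750 and 0.762 on the control arrays. Neuronal transcripts marked the tissue on every array, where the pan-neuronal genes had medians of 1.71 to 1.91 and the proliferation genes medians of −1.65 to −1.47. The labels put a different number series on the ACTH arrays and on the others, so the series and ACTH treatment cannot be told apart. No label says how many animals stand behind the arrays, so p-values measure only the spread between these samples.

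Of 9554 features, 3126 passed an adjusted p of 0.05 in limma's test, or 32.7% of all features tested. Those that rose in gratified brains numbered 1101 (11.5%), and those that fell numbered 2025 (21.2%). The differences were small, with a median size of 0.37 log2 units among the features that passed, and 22 exceeded 1 log2 unit. In 70.8% of the features that passed, the gratified and control arrays did not overlap.

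One property of the deposited values bears on the rises. Many features shared their value, to the last digit given, with another feature on the same array, and this held for 23.3%, 22.6%, 22.3%, 23.0% and 27.1% of the features on the gratified arrays, against 2.75%, 16.1%, 6.46% and 7.93% on the control arrays. Every gratified array lay above every control array, the mean difference was 15.4 percentage points, and an exact two-sided permutation test gave p = 0.0159, the smallest that 5 arrays against 4 allow. The 4 ACTH arrays that were not gratified had 22.2%, 21.0%, 30.3% and 33.5%, and the 4 furosemide gratified arrays between 3.28% and 14.9%.

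**Figure D1:**
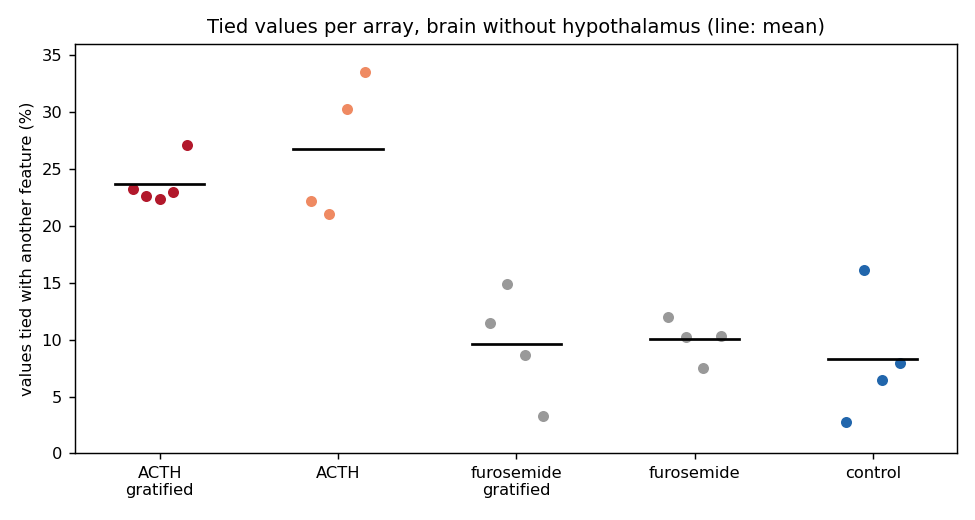
Share of features (percent, vertical axis) whose deposited value equals that of another feature on the same array, with 1 point per array and the groups of the brain side by side. The 5 ACTH gratified arrays lie between 22.3% and 27.1% and the 4 control arrays between 2.75% and 16.1%.

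Features tied on most of the gratified or of the control arrays numbered 2093, and for these no size of change is given. Among them 36.4% passed, 727 as rises (34.7%) and 34 as falls (1.62%). Their median log2 ratio was 0.38 in gratified brains and 0.14 in control brains. Of the 7461 other features 31.7% passed, 374 as rises (5.01%) and 1991 as falls (26.7%), and their median level was −0.42 in gratified brains and −0.33 in control brains. The 5136 features that were never tied on any of the 9 arrays had a median difference of −0.17, and 37% of them passed, 118 as rises (2.3%) and 1781 as falls (34.7%). Tied features thus made up 66.0% of the rises and 1.68% of the falls. Of the 22 features that passed with more than 1 log2 unit, 12 were not tied on most arrays. Without the tied features the median size among those that passed was 0.38 log2 units. Of all features, 2079 were tied on most gratified arrays and 220 on most control arrays. Both the flag and the never-tied set were drawn from the arrays compared here. The split of rises and falls by ties is therefore not independent of the values compared.

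The balance of rises and falls therefore turned on how the arrays were centred. Centring each array on its never-tied features moved every difference up by 0.19 log2 units, and the features that passed then numbered 3984 (41.7%), of which 3210 rose (33.6%) and 774 fell (8.1%). Among the features not tied on most arrays 31.7% passed with this centring, 1597 as rises (21.4%) and 767 as falls (10.3%). With every array median set to 0, 31% of all features passed (13% rose and 18% fell), and after quantile normalization 27.8% passed (11.4% rose and 16.4% fell). Rises made up 35.2% of the features that passed in the deposited scaling, 80.6% with the centring on never-tied features, 42.0% with array medians at 0 and 41.1% after quantile normalization. For this reason the counts of most gene groups below are given as deposited and also with the centring on never-tied features, chosen after seeing the data.

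**Figure D2:**
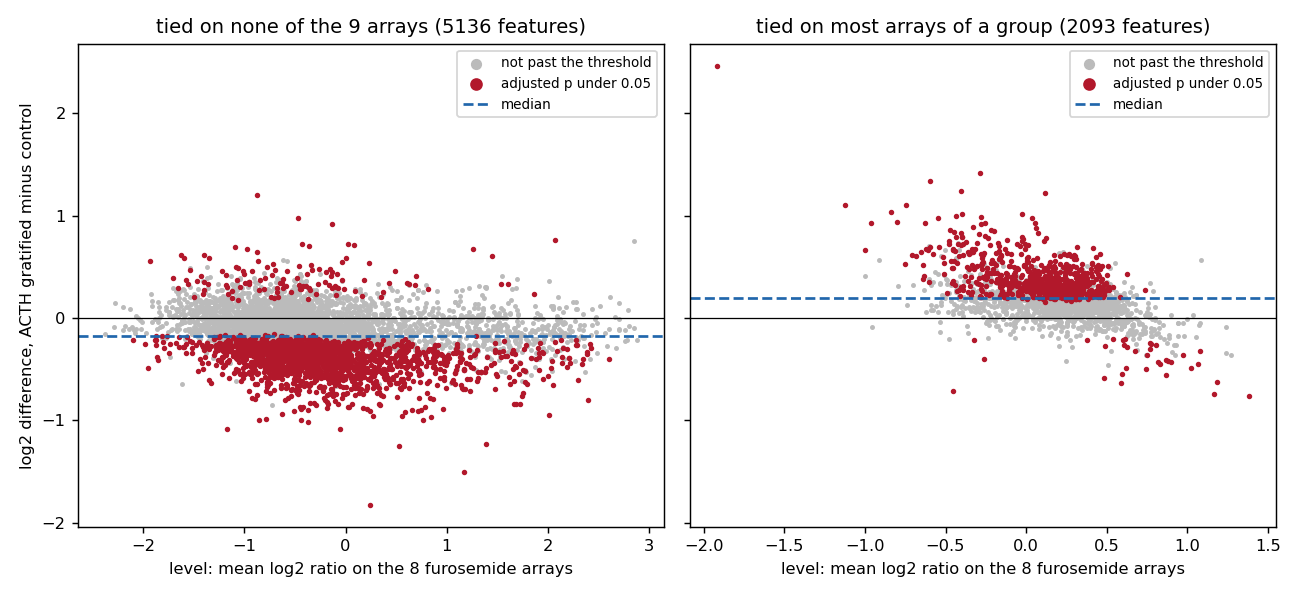
Difference in log2 ratio, ACTH gratified minus control (vertical axis), against the mean log2 ratio on the 8 arrays of the 2 furosemide groups (horizontal axis), with 1 point per feature. The 2093 features tied on most arrays of a group gather in a band of moderately positive levels and lie mainly above 0, while the 5136 never-tied features lie mainly below 0 over the whole range.

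A beta subunit of the sodium pump was lower in gratified brains. Atp1b3 had log2 ratios of −1.09, −0.92, −0.47, −0.99 and −0.99 on the gratified arrays, against −0.23, −0.23, −0.21 and −0.25 on the control arrays. The groups did not overlap, and Atp1b3 differed by −0.66 ± 0.10 log2 units (SE), a 1.58-fold difference with a limma adjusted p of 8.13e-05. With the centring on never-tied features the difference was −0.48.

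The other beta subunits measured did not pass the test as deposited. Atp1b1, the commonest beta subunit in neurons, differed by −0.12 ± 0.13 (adjusted p = 0.508). Atp1b2, the beta subunit of glia, differed by 0.20 ± 0.13 as deposited (adjusted p = 0.222), and it passed as a rise after quantile normalization (0.40, adjusted p = 0.0122) and with the centring on never-tied features (0.39, adjusted p = 0.0158).

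The list of sodium pumps, channels and transporters held 15 measured genes, of which 2 rose (13.3%) and 4 fell (26.7%). Among all features 11.5% rose and 21.2% fell. The median difference of the list was −0.05. The median changed sign with the centring on never-tied features (0.14, 3 rises and 2 falls) and after quantile normalization (0.11, 1 rise and 3 falls). Among the falls beside Atp1b3 was Asic2, an acid-sensing sodium channel, at −0.33 ± 0.09. It kept its sign but lost the call with the centring on never-tied features (−0.14, adjusted p = 0.162). Scnn1a, the alpha subunit of the epithelial sodium channel, had 0.45, 0.01, 0.30, 0.17 and 0.37 in gratified brains, against 0.04, −0.44, −0.27 and 0.04 in control brains. It passed as a rise (0.42 ± 0.15, adjusted p = 0.0333), although the groups overlapped. With any 1 array left out, 0 or 1 gene of this list rose and 4 fell.

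**Figure D3:**
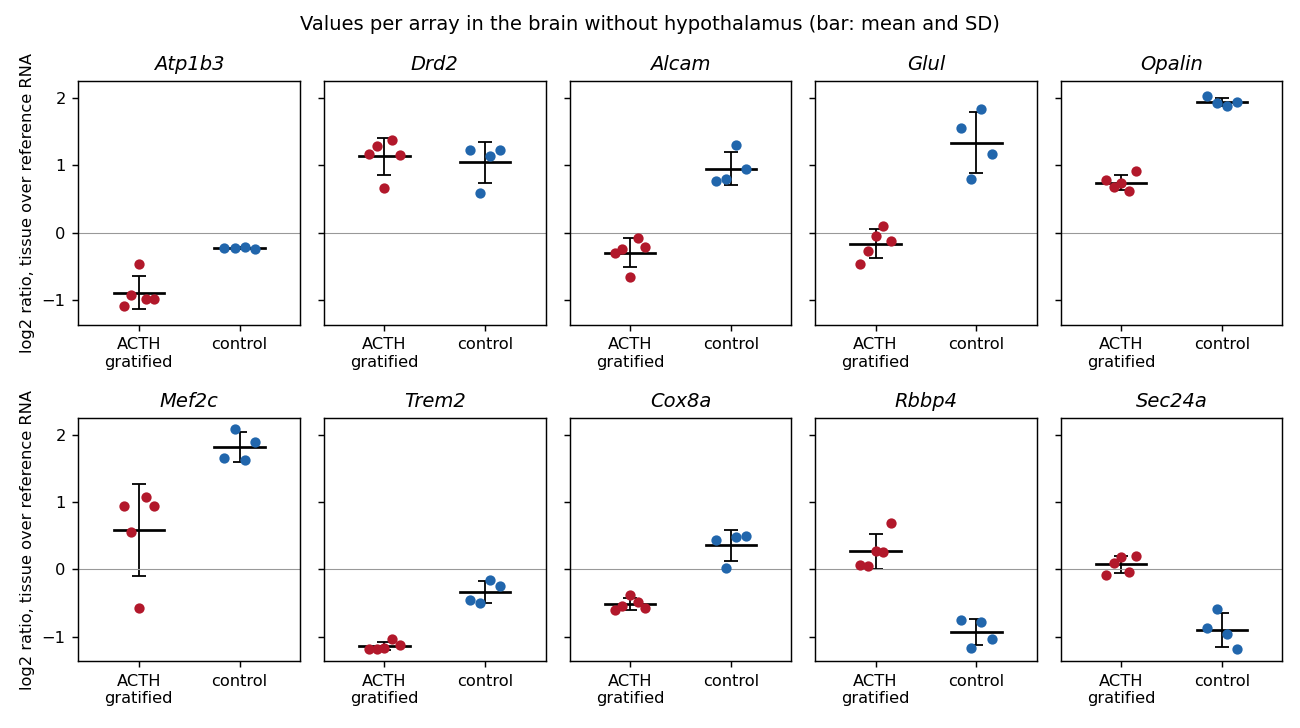
Log2 ratios of 10 genes on each array (vertical axis: log2 ratio of brain over reference), with the 5 ACTH gratified arrays left of the 4 control arrays and the mean and SD of each group marked. Atp1b3, Alcam, Glul, Opalin, Mef2c, Trem2 and Cox8a lie lower on every gratified array than on any control array, Rbbp4 and Sec24a lie higher, and Drd2 overlaps.

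Astrocyte and oligodendrocyte genes each held a fall of more than 1 log2 unit. Glul, the glutamine synthetase of astrocytes, had −0.47, −0.27, −0.05, 0.10 and −0.13 on the gratified arrays, against 1.55, 0.80, 1.83 and 1.16 on the control arrays (−1.50 ± 0.24, adjusted p = 0.000172). Of the 15 measured astrocyte genes 0 rose and 3 fell, Clu (−0.32 ± 0.10) and Fabp7 (−0.84 ± 0.29) beside Glul. These falls were 20% of the list, near the 21.2% of all features that fell. Clu (−0.13, adjusted p = 0.243) and Fabp7 (−0.65, adjusted p = 0.0732) lost their calls with the centring on never-tied features, and both also lost them after quantile normalization and without control replicate 3. Fabp7 further lost its call with the replicate number as a block, with array weights and without control replicate 2 or gratified replicate 3 or 5. Gfap, the intermediate filament of astrocytes (0.28 ± 0.24, adjusted p = 0.369), the water channel Aqp4 (−0.12 ± 0.18) and Apoe (0.11 ± 0.08) did not pass. Without control replicate 3 the list had 1 fall, Glul. The list median was −0.11 as deposited and changed sign with the centring on never-tied features (0.08, 3 rises and 1 fall) and after quantile normalization (0.11).

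Opalin, a membrane glycoprotein of myelinating oligodendrocytes, had 0.78, 0.68, 0.74, 0.61 and 0.91 in gratified brains, against 2.03, 1.92, 1.87 and 1.93 in control brains. The gap between the groups was wide beside their spread (−1.20 ± 0.09, adjusted p = 6.83e-08). Of 18 measured oligodendrocyte and myelin genes 2 rose (11.1%) and 4 fell (22.2%), near the 11.5% and 21.2% of all features. The list median was −0.19 as deposited and 0.00 with the centring on never-tied features, where 3 rose and 2 fell. The transcription factor Olig1 (−0.39 ± 0.09, adjusted p = 0.0022), carbonic anhydrase Car2 (−0.44 ± 0.10) and the acetylaspartate-cleaving enzyme Aspa (−0.36 ± 0.13) fell, and Olig1 (−0.20, adjusted p = 0.061) and Aspa (−0.18, adjusted p = 0.266) lost their calls under the centring. Mbp, the myelin basic protein, differed by −0.01 ± 0.09 (adjusted p = 0.915).

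Cldn11, the tight-junction claudin of myelin, went the other way, with 2.10, 1.86, 2.25, 1.96 and 1.75 in gratified brains, against 2.19, 1.43, 0.71 and 0.56 in control brains. The control arrays ranged more widely than the gratified ones and overlapped them. The rise of 0.76 ± 0.23 (adjusted p = 0.016) was lost without control replicate 3 (0.59, adjusted p = 0.0801) or control replicate 4 (0.54, adjusted p = 0.0818). Without gratified replicate 3, 10 of the 18 oligodendrocyte genes fell, and without control replicate 3, 0 rose and 3 fell.

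Most microglial and macrophage genes measured were lower. Of 13 measured, 0 rose and 9 fell, or 69.2% beside 21.2% of all features and 34.7% of the never-tied ones. The list median was −0.54, beside −0.04 for all features and −0.17 for the never-tied ones. Trem2, the microglial receptor for lipids, had −1.18, −1.19, −1.16, −1.03 and −1.13 in gratified brains, against −0.45, −0.49, −0.16 and −0.25 in control brains. It was lower on every gratified array (−0.80 ± 0.09, adjusted p = 9.15e-06) and stayed so with the centring on never-tied features (−0.61). Cx3cr1, the fractalkine receptor, had 0.96, 0.89, 0.65, 1.18 and 0.90 in gratified brains, against 1.87, 1.00, 1.63 and 1.73 in control brains, where control replicate 2 lay within the gratified range (−0.64 ± 0.17, adjusted p = 0.00751).

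Other microglial falls were of like size. The complement chains C1qb differed by −0.61 ± 0.13 and C1qc by −0.38 ± 0.09, the adaptor Tyrobp by −0.56 ± 0.13, the growth factor receptor Csf1r by −0.54 ± 0.11 and the lysosomal protein Cd68 by −0.52 ± 0.16. C1qc (−0.19, adjusted p = 0.065) and Cd68 (−0.33, adjusted p = 0.101) lost their calls with the centring on never-tied features. P2ry12, the purine receptor of resting microglia, also fell but was tied on every gratified array. Laptm5 (−0.61 ± 0.29, adjusted p = 0.106), Ctss (−0.22 ± 0.16) and Fcer1g (−0.17 ± 0.13) did not pass. The count of falls was 6 both with the centring on never-tied features (list median −0.35) and after quantile normalization (list median −0.43), and between 7 and 9 with any 1 array left out. The mean level of the list lay between −0.26 and −0.07 on the gratified arrays and between 0.09 and 0.52 on the control arrays, which did not overlap.

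Genes of oxidative phosphorylation, by which mitochondria make ATP, were mostly lower. Of 59 measured subunits and assembly factors 0 rose and 37 fell, or 62.7%, beside 21.2% of all features and 34.7% of the never-tied ones. The list median was −0.36, beside −0.04 for all features and −0.17 for the never-tied ones, and 56 of the 59 differences lay below 0. Gratified and control arrays did not overlap for 18 of the 59, a share close to the 28% of all features. By complex, 19 of 28 genes of complex I fell (median −0.37), 0 of 2 of complex II (median −0.23), 3 of 6 of complex III (median −0.31), 7 of 10 of complex IV with cytochrome c (median −0.39) and 8 of 13 of ATP synthase (median −0.34). With the centring on never-tied features 18 of the 59 fell and 2 rose, and the list median was −0.17. With 1 array left out between 26 and 47 fell, complex I had 12 falls without control replicate 3, and complex III had 5 without control replicate 2.

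Cox8a, a small subunit of cytochrome c oxidase, had −0.60, −0.54, −0.39, −0.48 and −0.57 in gratified brains, against 0.44, 0.01, 0.48 and 0.49 in control brains (−0.87 ± 0.10, adjusted p = 1.18e-05). Atp5b, the catalytic beta subunit of ATP synthase, had −0.91, −0.90, −0.53, −0.84 and −0.94, against −0.08, 0.13, 0.11 and −0.07 in control brains (−0.85 ± 0.12, adjusted p = 6.31e-05). Its partner Atp5a1 had −0.49, −0.53, −0.15, −0.49 and −0.65 in gratified brains, against 0.22, 0.27, 0.39 and 0.26 in control brains (−0.75 ± 0.09, adjusted p = 1.25e-05). All 3 were lower on every gratified array, and gratified replicate 3 lay nearest to the controls for each of them.

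In complex I, which takes electrons from NADH, Ndufa10 had −0.66, −0.64, −0.58, −0.63 and −0.79 in gratified brains, against −0.11, −0.20, 0.06 and −0.12 in control brains (−0.57 ± 0.08, adjusted p = 4.95e-05). Ndufb5 (−0.65 ± 0.14), Ndufb9 (−0.56 ± 0.10) and Ndufs8 (−0.56 ± 0.12) also fell, while Ndufb10 differed by 0.03 ± 0.09. In complex III the core protein genes Uqcrc1 (−0.38 ± 0.09) and Uqcrc2 (−0.51 ± 0.12) and the small subunit Uqcr11 (−0.51 ± 0.11) fell, Uqcrc1 not with the centring on never-tied features (−0.19, adjusted p = 0.063). The complex II subunits Sdhb (−0.24 ± 0.11, adjusted p = 0.0864) and Sdhd (−0.22 ± 0.13, adjusted p = 0.192) did not pass. Cox15, a haem synthesis enzyme of complex IV assembly, was measured by 2 features that passed in opposite directions (−0.48 ± 0.11 and 0.50 ± 0.18).

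**Figure D4:**
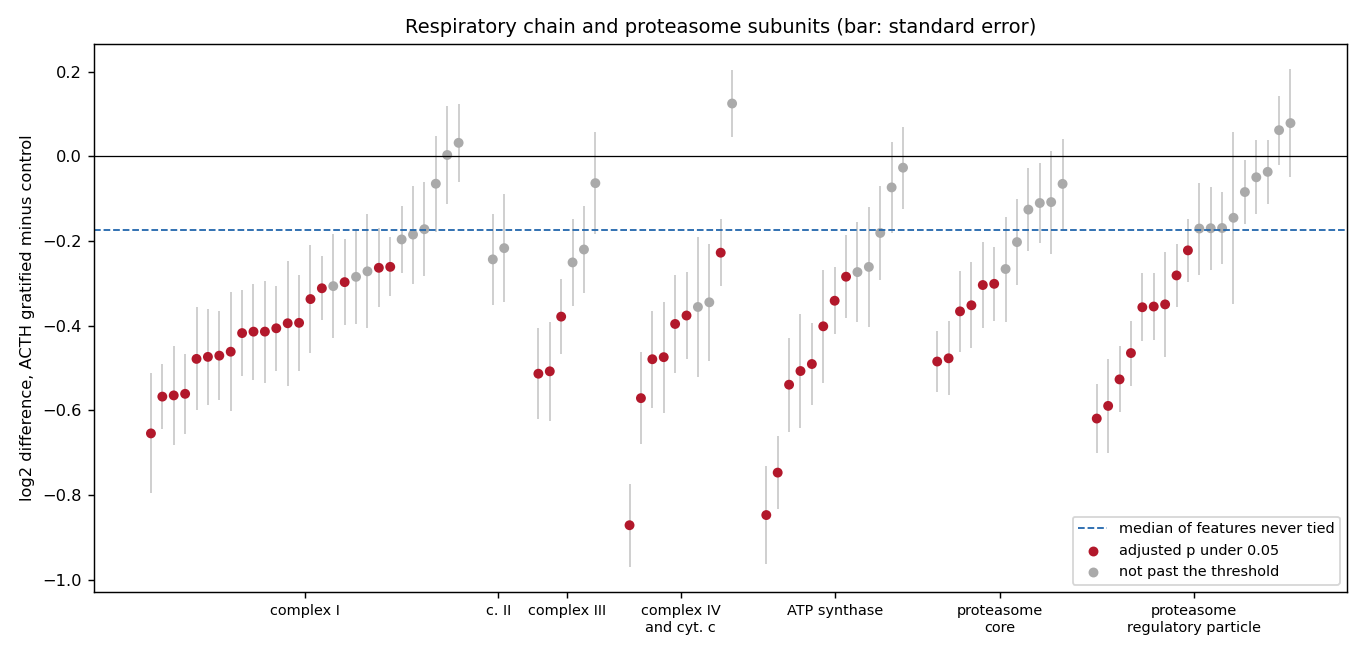
Difference in log2 ratio, ACTH gratified minus control (vertical axis), for each measured subunit of the respiratory complexes and the proteasome, grouped by complex, with standard errors as bars. Of the 59 genes of oxidative phosphorylation 56 lie below 0, and the dashed line marks the median of never-tied features at −0.17.

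Promoters of these genes are shown because nuclear genes of the respiratory chain are known targets of the transcription factors NRF-1 and GABP, and because these genes moved together. Windows of 250 bases before to 50 after each gene's start were taken from RefSeq's annotation of the GRCm38.p6 build and searched on both strands for the letters GCGCATGCG (NRF-1, which also reads CGCATGCGC) and CCGGAAGTG (GABP, which also reads CACTTCCGG). The 4 stretches below each cover 100 bases within the 250 before a start on the minus strand, 5′ to 3′, with the matched letters in capitals. Cox6a1 lies at chr5:115349066-115349165, Ndufa8 at chr2:36049339-36049438, Atp5l at chr9:44920893-44920992 and Cox10 at chr11:64079473-64079572. The match is to NRF-1 in the 3 named first and to GABP in Cox10.
Cox6a1: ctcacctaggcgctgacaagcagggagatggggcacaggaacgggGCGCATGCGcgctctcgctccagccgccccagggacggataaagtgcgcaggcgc
Ndufa8: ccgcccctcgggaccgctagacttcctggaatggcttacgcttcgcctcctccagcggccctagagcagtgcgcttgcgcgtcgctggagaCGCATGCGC
Atp5l: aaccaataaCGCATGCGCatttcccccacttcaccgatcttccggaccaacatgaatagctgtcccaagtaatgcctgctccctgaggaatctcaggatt
Cox10: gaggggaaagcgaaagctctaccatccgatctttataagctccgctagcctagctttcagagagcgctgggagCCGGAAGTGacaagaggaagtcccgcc

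The NRF-1 letters were in 6 of the 54 windows of oxidative phosphorylation genes (11.1%), beside 575 of all 32851 windows (1.75%). The GABP letters were in 4 of the 54 windows (7.41%), beside 666 of all windows (2.03%). Of the 30 genes that fell and had a window, 5 held the NRF-1 letters and 3 held the GABP letters. A match is only a run of letters in the window, and no binding was measured here.

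The 4 genes shown were chosen among those that fell and held a match, so that all 4 fell follows from the choice. Matches that reached past the start were not shown, and neither were windows on a chromosome left out of the display. Cox6a1, a subunit of cytochrome c oxidase, had −0.16, −0.15, 0.01, −0.06 and −0.01 in gratified brains, against 0.45, 0.19, 0.69 and 0.66 in control brains (−0.57 ± 0.11, adjusted p = 0.000686). The falls were smaller for the complex I subunit Ndufa8 (−0.26 ± 0.07, adjusted p = 0.00777), the ATP synthase subunit Atp5l (−0.40 ± 0.13, adjusted p = 0.0261) and Cox10, which makes haem for cytochrome c oxidase (−0.23 ± 0.08, adjusted p = 0.0341). These last 3 did not pass with the centring on never-tied features, at −0.07 for Ndufa8, −0.21 for Atp5l and −0.04 for Cox10 (adjusted p = 0.329, 0.165 and 0.734).

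The pathways that feed the respiratory chain fell in part. Of 16 tricarboxylic acid cycle genes 0 rose and 7 fell, or 43.8% beside 21.2% of all features and 34.7% of the never-tied ones. The median was −0.26 as deposited and −0.07 with the centring on never-tied features, where 1 rose and 3 fell, and 4 fell without control replicate 3. Citrate synthase Cs (−0.44 ± 0.06, adjusted p = 6.71e-05), malate dehydrogenase Mdh2 (−0.50 ± 0.09) and Ogdh (−0.58 ± 0.11), of the oxoglutarate dehydrogenase complex, were among them. Of 11 glycolytic genes 5 fell (median −0.24), and 4 fell with the centring on never-tied features (median −0.05). Pfkm, a phosphofructokinase, had 0.08, 0.06, 0.56, 0.25 and 0.17 in gratified brains, against 0.79, 1.12, 1.05 and 1.05 in control brains (−0.78 ± 0.09, adjusted p = 1.48e-05). The pyruvate kinase Pkm differed by 0.02 ± 0.08.

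The proteasome, which degrades tagged proteins, had falls in both of its parts. Of 30 measured subunits 0 rose and 15 fell, 6 of 12 in the core and 9 of 18 in the regulatory particle, and the median was −0.24. The share of falls was 50%, beside 21.2% of all features and 34.7% of the never-tied ones. With the centring on never-tied features 1 rose and 6 fell, with a median of −0.06. Psmc3, an ATPase of the regulatory particle, had −0.91, −0.79, −0.58, −0.83 and −0.85 in gratified brains, against −0.25, −0.11, −0.19 and −0.15 in control brains (−0.62 ± 0.08, adjusted p = 4.04e-05). Psmc5 (−0.59 ± 0.11), Psmd11 (−0.53 ± 0.08) and the core subunit Psmb4 (−0.48 ± 0.07) also fell. Without control replicate 3 the core had 3 falls, and without control replicate 2 it had 10. Of 8 ribosomal protein genes 5 fell as deposited (median −0.41), 2 without control replicate 1, and 0 with the centring on never-tied features.

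Neuronal genes did not move as a body. Of 12 pan-neuronal genes 1 rose (8.33%) and 0 fell, beside 11.5% and 21.2% of all features, and 34.7% of the never-tied features fell. The list median of −0.12 turned to 0.07 with the centring on never-tied features (3 rises and 0 falls) and to 0.09 after quantile normalization. The gene that rose was Nefm, the medium neurofilament of axons, at 1.52, 1.41, 1.67, 1.42 and 1.31 in gratified brains, against 1.18, 0.75, 0.75 and 0.76 in control brains (0.61 ± 0.17, adjusted p = 0.00979). Mef2c, a transcription factor of excitatory neurons, had 0.94, 0.55, −0.58, 1.07 and 0.94 in gratified brains, against 1.65, 2.09, 1.63 and 1.90 in control brains (−1.23 ± 0.27, adjusted p = 0.00224), and gratified replicate 3 lay well below the other 4. Mef2c had the lowest difference of the list of cortical and hippocampal pyramidal neurons. In that list 0 of 17 genes rose and 2 fell, or 11.8% falls beside 21.2% of all features. The list median was −0.16 as deposited and 0.03 with the centring on never-tied features.

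Among the 14 GABAergic interneuron genes 0 rose and 4 fell (median −0.23), or 28.6% beside 21.2% of all features and 34.7% of the never-tied ones. Without control replicate 3, 1 fell, and with the centring on never-tied features 1 rose and 1 fell. Npy, the appetite and interneuron peptide, had 1.49, 1.17, 1.88, 2.21 and 2.16 in gratified brains, against 2.61, 2.54, 2.63 and 2.56 in control brains (−0.80 ± 0.17, adjusted p = 0.00196). Gad1, which makes GABA, differed by −0.34 ± 0.10 (adjusted p = 0.0166), lost without control replicate 3 (adjusted p = 0.0717), and Sst by −0.47 ± 0.16 (adjusted p = 0.031), lost without control replicate 4 (−0.31, adjusted p = 0.148). Neither passed with the centring on never-tied features. Vip differed by −0.61 ± 0.24 (adjusted p = 0.0541).

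The striatal and dopamine list had 2 falls among 16 genes, or 12.5% beside 21.2% of all features. With any 1 array left out it had 1 to 3 falls, the most without control replicate 2. It had 1 rise without gratified replicate 3. Centring on never-tied features gave 1 rise and 1 fall. Ppp1r1b, the DARPP-32 protein of medium spiny neurons (0.04 ± 0.12, adjusted p = 0.813), and the dopamine receptor Drd2 (0.09 ± 0.19, adjusted p = 0.746) did not pass, and Drd1 was tied on most arrays. The cerebellar list had 0 calls among 10 genes as deposited, where 32.7% of all features passed, and 1 rise with that centring.

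Synaptic genes showed falls that other features of the same genes did not share. Of 20 genes of glutamate receptors and the postsynaptic density 1 rose and 8 fell as deposited, or 40% falls beside 21.2% of all features. None of the 20 was tied on most arrays. Of all features not tied on most arrays 26.7% fell, and of the never-tied ones 34.7%. With the centring on never-tied features 2 fell and 3 rose. The falls numbered 3 without control replicate 3, and 5 without gratified replicate 1 or 3. One feature of Gria2, an AMPA receptor subunit, had 2.00, 1.91, 2.01, 1.97 and 1.56 in gratified brains, against 2.49, 2.51, 2.57 and 2.43 in control brains (−0.61 ± 0.14, adjusted p = 0.00307), while its other feature differed by −0.00 ± 0.15. The scaffold Homer2 (−0.58 ± 0.13) and 1 feature of the scaffold Dlg4 (−0.46 ± 0.12) fell, while the second feature of Dlg4 differed by 0.07 ± 0.12. Gabrd, the delta subunit of GABA-A receptors, had 1 feature, at 1.57, 1.41, 1.78, 1.64 and 1.40 in gratified brains, against 2.08, 2.10, 2.01 and 2.02 in control brains (−0.49 ± 0.09, adjusted p = 0.000624). It was the 1 fall among 8 measured GABA-A receptor genes, of which 0 rose. That was 12.5% falls, beside 21.2% of all features.

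This was general. Of 600 genes with several features not tied on most arrays, 276 had at least 1 feature past the threshold. In 18 of those every feature fell, in 3 every feature rose, in 18 features passed in opposite directions, and in 237 some features passed and others did not.

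Genes that answer to steroids and to activity had list medians near 0 as deposited, with members that moved both ways. Of 17 glucocorticoid-responsive genes 1 rose (5.88%) and 2 fell (11.8%), beside 11.5% and 21.2% of all features. The median was 0.02, and the lowest difference, −1.50, was that of Glul, also an astrocyte gene. Between 0 and 3 rose and 1 to 3 fell with any 1 array left out. With the centring on never-tied features 7 rose and 1 fell (median 0.21). Fkbp5, a glucocorticoid-induced chaperone of the receptor, had −0.58, −0.52, −0.96, −0.40 and −0.70 in gratified brains, against −0.77, 0.12, 0.05 and −0.08 in control brains. Control replicate 1 lay within the gratified range, and the difference of −0.46 ± 0.14 (adjusted p = 0.0169) lost its call without control replicate 2 (adjusted p = 0.0621) or control replicate 3 (adjusted p = 0.0719) and with the centring on never-tied features (−0.28, adjusted p = 0.122).

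Sgk1, the corticosteroid-induced kinase that acts on sodium channels, had −0.36, −0.10, −0.03, −0.54 and −0.89 in gratified brains, against −0.84, −0.98, −0.55 and −0.60 in control brains (0.36 ± 0.16, adjusted p = 0.0893). It passed with the centring on never-tied features (0.55, adjusted p = 0.00776) and after quantile normalization (0.42, adjusted p = 0.0475). The glucocorticoid receptor gene Nr3c1 differed by −0.01 ± 0.11 (adjusted p = 0.93), and Nr3c2 was tied on most arrays. Of 9 genes of steroid receptors and corticosteroid metabolism 0 rose and 0 fell, beside 11.5% and 21.2% of all features.

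Of 23 immediate early genes, which neurons switch on within minutes of activity, 2 rose (8.70%) and 4 fell (17.4%). Among all features 11.5% rose and 21.2% fell. The list median was −0.03, its differences ran from −0.76 to 0.46, and 2 genes fell without control replicate 3. With the centring on never-tied features 8 rose and 3 fell (median 0.15). Egr1 had −1.12, −1.17, −1.70, −1.12 and −1.20 in gratified brains, against −0.45, −0.43, −0.41 and −0.74 in control brains (−0.76 ± 0.15, adjusted p = 0.00114). Jund (−0.49 ± 0.06, adjusted p = 4.42e-05), Nr4a1 (−0.72 ± 0.20) and Nr4a2 (−0.42 ± 0.13) fell as well, although Nr4a1 was lost without control replicate 3 (−0.58, adjusted p = 0.0545) and Nr4a2 with the centring on never-tied features (−0.23, adjusted p = 0.145). Ier2 had −1.16, −1.19, −1.20, −1.30 and −1.24 in gratified brains, against −1.75, −1.72, −1.54 and −1.71 in control brains (0.46 ± 0.13, adjusted p = 0.012). Fos differed by 0.27 ± 0.13 (adjusted p = 0.109) and passed with the centring on never-tied features (0.45, adjusted p = 0.0113), and Arc differed by −0.03 ± 0.22.

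The clock list had 0 rises and 5 falls among 18 genes as deposited (median −0.17). That was 27.8% falls, beside 21.2% of all features and 34.7% of the never-tied ones. It had 2 rises and 2 falls with the centring on never-tied features (median 0.02). Dbp, an output factor of the clock, had −0.38, −0.53, −0.69, −1.01 and −0.58 in gratified brains, against −0.39, −0.04, 0.47 and 0.36 in control brains (−0.74 ± 0.17, adjusted p = 0.00263). The kinase Csnk1e fell with no overlap (−0.58 ± 0.08, adjusted p = 6.36e-05), and the list had 3 falls without any one of control replicates 3 and 4 and gratified replicates 2 and 4. The labels used here give no time of day for the tissue.

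Genes of blood vessels and of the choroid plexus, tissue a brain dissection can hold in varying amounts, gave mixed values. Of 14 endothelial and pericyte genes 1 rose and 6 fell, or 42.9% falls beside 21.2% of all features and 34.7% of the never-tied ones. Without control replicate 1 or 3 there were 2 falls, without control replicate 4 there were 3, and with the centring on never-tied features 0. Of 12 choroid plexus and ependymal genes, Otx2 rose (0.43 ± 0.11) and Rbp4 fell (−0.44 ± 0.10). Ttr, the transthyretin of the choroid plexus, had 1.57, 2.93, 3.07, 2.71 and 2.97 in gratified brains, against 3.01, 0.83, 1.71 and 2.06 in control brains (0.75 ± 0.42, adjusted p = 0.17). That list had 4 rises and 1 fall with the centring on never-tied features. Without control replicate 1, 5 rose, and the Ttr of that array was the highest of its group. The mean level of the choroid list lay between 0.41 and 1.00 on gratified arrays and between 0.26 and 1.03 on control arrays, that of the hypothalamic peptide list between 0.75 and 0.93 against 0.80 and 0.97, and that of the red blood cell list between 0.83 and 1.03 in both groups. The pituitary list lay at 0.19 to 0.31 on gratified arrays and 0.02 to 0.18 on control arrays, but 4 of its 6 genes were tied on most arrays. What share of any result goes with these tissues was not tested.

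**Figure D5:**
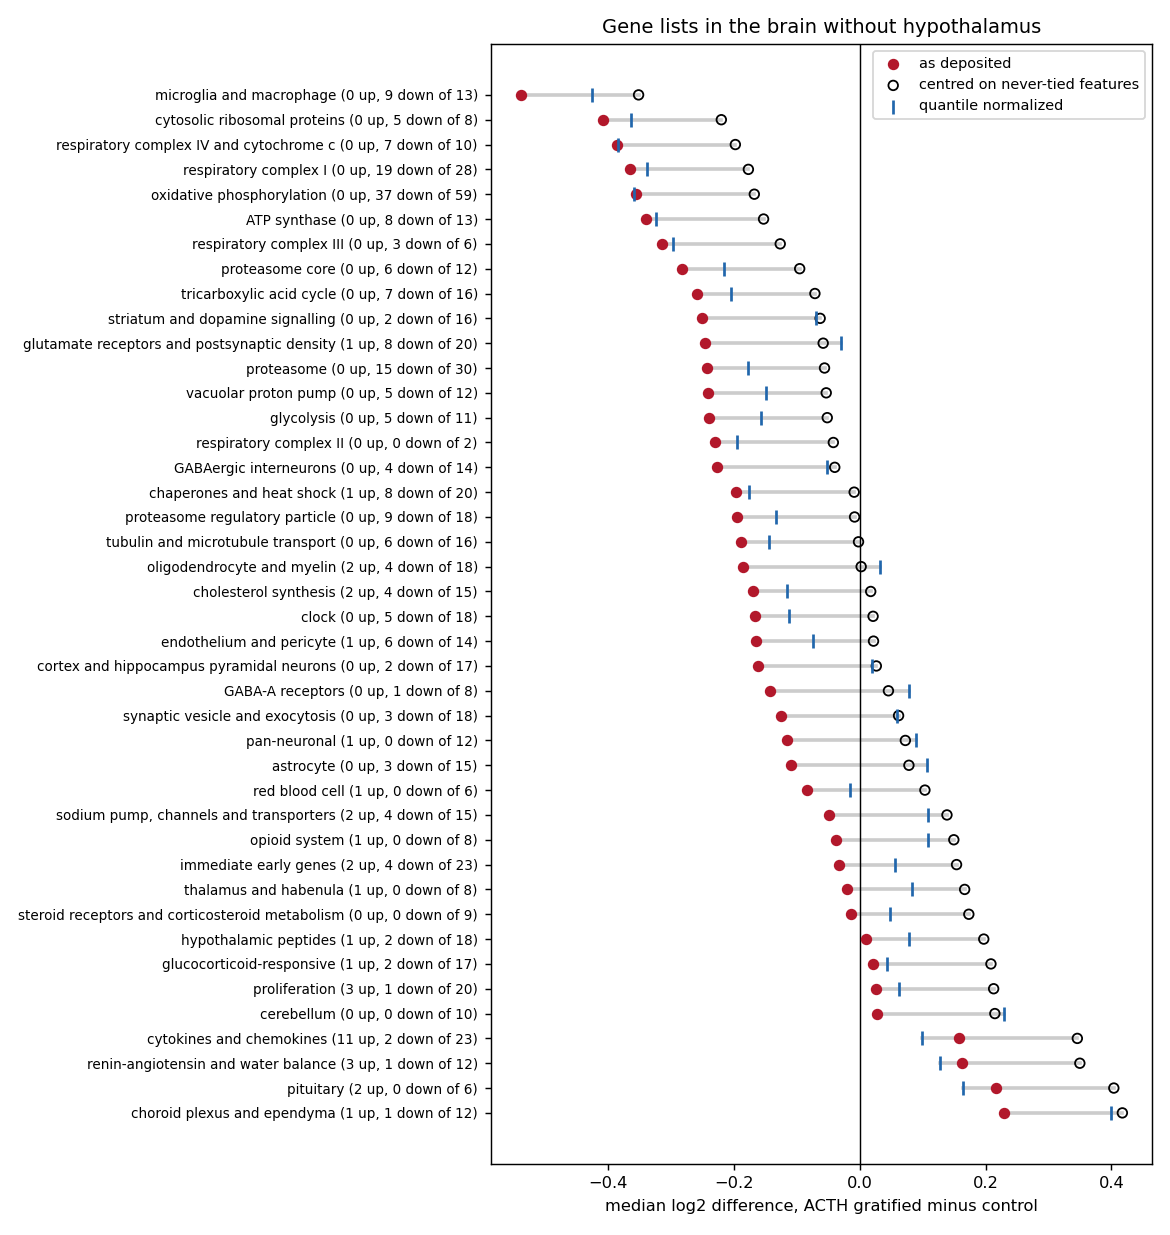
Median difference in log2 ratio, ACTH gratified minus control (horizontal axis), of each gene list as deposited, centred on never-tied features and quantile normalized, with the counts of genes that rose (up) and fell (down) as deposited. The microglial list lies lowest, at −0.54 as deposited and −0.35 centred, and the centring moves every list up by the same shift of 0.19.

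Rises among features not tied on most arrays were fewer. Rbbp4, a histone-binding subunit of chromatin complexes, had 0.06, 0.05, 0.28, 0.26 and 0.68 in gratified brains, against −0.75, −1.16, −0.79 and −1.03 in control brains (1.20 ± 0.21, adjusted p = 0.000321), a 2.30-fold difference. Sec24a, a coat protein of vesicles that leave the endoplasmic reticulum, had −0.09, 0.10, 0.19, −0.04 and 0.20 in gratified brains, against −0.87, −0.59, −0.97 and −1.19 in control brains (0.97 ± 0.17, adjusted p = 0.000432). Cd3e, a chain of the T-cell receptor complex, had −0.56, −0.42, −0.38, −0.21 and −0.41 in gratified brains, against −1.16, −1.21, −1.39 and −1.29 in control brains (0.87 ± 0.14, adjusted p = 0.000202). In each of the 3 the groups did not overlap.

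The membrane fusion protein Snap23 (0.92 ± 0.18), the folate enzyme Shmt1 (0.93 ± 0.26) and the interleukin-6 receptor Il6ra (0.78 ± 0.22) were other rises of this kind. The calcium-binding Anxa4 (0.97 ± 0.30, adjusted p = 0.0165) was lost without control replicate 3 (adjusted p = 0.0575). One feature of Cd247, another T-cell receptor chain, rose by 1.09 ± 0.36, but its controls split into −0.06 and −0.08 beside −1.72 and −1.74. The call was lost without control replicate 3 (0.82, adjusted p = 0.118) or control replicate 4 (0.81, adjusted p = 0.111). It was also lost with tied values set to missing (1.04, adjusted p = 0.0976). Gria4 rose in 1 feature (0.95 ± 0.26) while the other differed by −0.25 ± 0.16 (adjusted p = 0.254), and Myh11, a smooth-muscle myosin, passed upward in 1 feature (0.82 ± 0.14) and downward in another (−0.44 ± 0.07). Agps, an enzyme of ether lipid synthesis (0.80 ± 0.27), lost its call in 5 of the 9 fits that left out an array (control replicates 3 and 4 and gratified replicates 2, 4 and 5, adjusted p between 0.0521 and 0.0694).

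Of 23 cytokine and chemokine genes 11 rose and 2 fell, but 15 of the 23 were tied on most arrays. The rises were 47.8% of the list, beside 11.5% of all features and 34.7% of those tied on most arrays. Il6 (0.39 ± 0.06, adjusted p = 0.000153), Ccl5 (0.29 ± 0.07) and Il10 (0.24 ± 0.09) were the rises that were not, and all 3 stayed at log2 ratios below 0 on every array. Il18 (−0.40 ± 0.11) and Csf1 (−0.23 ± 0.06) fell. Under the centring on never-tied features 18 rose and 0 fell, and Il18 (−0.22, adjusted p = 0.0789) and Csf1 (−0.05, adjusted p = 0.625) lost their calls. With 1 array left out between 6 and 10 of the list rose, 6 of them without control replicate 3 or gratified replicate 1 and 7 without control replicate 4 or gratified replicate 2. In the renin-angiotensin and water balance list 3 of 12 genes rose, or 25% beside 11.5% of all features. The vasopressin receptor Avpr1b and the angiotensin receptor Agtr1a were among them, and all 3 were tied on most arrays. With the centring 6 rose and 1 fell. Npr2, a natriuretic peptide receptor, fell (−0.44 ± 0.10, adjusted p = 0.00181), and angiotensinogen, Agt, differed by 0.30 ± 0.28.

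Of 15 cholesterol genes 2 rose (13.3%) and 4 fell (26.7%) as deposited (median −0.17), beside 11.5% and 21.2% of all features. With the centring on never-tied features 3 rose and 3 fell (median 0.02). The synthesis enzymes Dhcr7 (−0.53 ± 0.08, adjusted p = 0.000126), Mvd (−0.47 ± 0.07) and Fdft1 (−0.35 ± 0.10) were among the falls, Fdft1 not with that centring (−0.16, adjusted p = 0.167).

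Further large falls came from genes of varied function. Alcam, an adhesion molecule, had −0.30, −0.25, −0.66, −0.08 and −0.22 in gratified brains, against 0.76, 0.80, 1.30 and 0.94 in control brains (−1.25 ± 0.17, adjusted p = 6.31e-05). Raly, an RNA-binding protein, had −2.07, −2.06, −1.89, −2.06 and −2.08, against −1.01, −0.95, −0.94 and −0.92 in control brains (−1.08 ± 0.13, adjusted p = 1.25e-05). Ehmt2, the G9a histone methyltransferase, had −1.02, −0.95, −0.87, −0.94 and −0.95, against −0.13, 0.17, 0.08 and 0.09 in control brains (−0.998 ± 0.096, adjusted p = 1.97e-06). The phosphatase Ptpn4 (−1.26 ± 0.30), the vesicle adaptor subunit Ap3d1 (−1.08 ± 0.15), the tubulin Tubb2b (−0.99 ± 0.17) and the sulfurtransferase Mpst (−0.99 ± 0.11) fell as far. One feature of Pus1, a pseudouridine synthase, fell by 1.00 ± 0.24, and by 0.58 without control replicate 3, while its other feature differed by 0.11 ± 0.07 (adjusted p = 0.243). One feature of the vesicle protein Synpr fell (−0.98 ± 0.24) and the other did not (0.03 ± 0.21).

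Among the features tied on most arrays, those of smallest p that rose were Tagln2, an actin-binding protein, then Slc35a3, Arhgef6, Znrf2 and Meox2. Tagln2 was tied on all 5 gratified arrays and on 0 of the 4 control arrays. Those that fell included features of Sorcs1, Ica1, Gp9 and Hoxd13. Features of Sorcs1 and Ica1 that were not tied on most arrays did not pass as falls.

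The next comparison asked whether gratification set the brains of ACTH mice apart from ACTH alone. Of 9554 features 6 passed in limma's test, or 0.0628%, all lower in gratified brains, and 614 had an unadjusted p under 0.05. Adamts1, a secreted protease, had −0.64, −1.51, −1.40, −1.56 and −1.56 in gratified brains, against −0.37, −0.01, −0.02 and −0.17 in ACTH brains (−1.19 ± 0.15, adjusted p = 0.00073). Gratified replicate 1 lay between the others and the ACTH arrays. Against untreated controls Adamts1 differed by −0.07 ± 0.15 in gratified brains and by 1.12 in ACTH brains.

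The other 5 were the actin-linked Gas2 (−0.67 ± 0.09), the cyclin Ccne2 (−0.78 ± 0.11), the growth factor receptor Met (−0.77 ± 0.13), the condensin subunit Ncaph (−0.83 ± 0.14) and Akip1, a kinase-binding protein (−0.57 ± 0.10). Against control, 0 of the 6 passed in gratified brains as deposited, where 32.7% of all features passed. Gas2 (−0.22, adjusted p = 0.0585) passed as a fall with only the groups compared (adjusted p = 0.039) and with array weights (adjusted p = 0.0382). It also passed without gratified replicate 3 (−0.24, adjusted p = 0.0488). Ncaph (−0.17, adjusted p = 0.337) passed with only the groups compared (adjusted p = 0.0422). The count of 6 was unstable: it was 41 without ACTH replicate 1, 17 without ACTH replicate 2 and 21 without ACTH replicate 4. Glul, which fell against control, did not pass here (0.19 ± 0.24, adjusted p = 0.953).

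Gratified brains were also set against brains of mice given furosemide and gratified. Here 944 features passed, or 9.88%, of which 321 (3.36%) rose and 623 (6.52%) fell in the ACTH gratified brains. Opalin was again lower (−1.24 ± 0.09, adjusted p = 3.54e-08), as was Glul (−1.25 ± 0.24), and Rbbp4 was higher (0.87 ± 0.21, adjusted p = 0.0139). Other features of smallest p and not tied on most arrays were Sh3pxd2a, a scaffold of invadopodia (−0.69 ± 0.07), Kif1c, a kinesin (−0.59 ± 0.06), and Sema7a, a membrane semaphorin (−0.86 ± 0.09). The count was 380 without furosemide gratified replicate 3 and 1733 without furosemide gratified replicate 2, and it was 609, 588 and 532 without gratified replicates 2, 4 and 5 and 492 without furosemide gratified replicate 1.

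The comparisons of ACTH, of furosemide gratified and of ACTH gratified brains with control share their 4 control arrays, so their values are given side by side and not as support for each other. ACTH alone gave 2868 features (30%), 888 of them rises (9.29%) and 1980 falls (20.7%), and furosemide gratified 0 in limma's test (1827 at an unadjusted p under 0.05). Opalin differed from control by −1.20 in ACTH gratified, −1.37 in ACTH and 0.04 in furosemide gratified brains. Glul differed by −1.50, −1.69 and −0.25 in the same order of groups. Of the 59 genes of oxidative phosphorylation 37 fell in ACTH gratified, 42 in ACTH and 0 in furosemide gratified brains, where the list median was −0.15.

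The hypothalamus of ACTH gratified mice (6 arrays) was compared with its own 4 controls. There 1207 features passed (12.6%), of which 446 rose (4.67%) and 761 fell (7.97%). Glul differed by −1.50 outside the hypothalamus and by −1.75 within it, Opalin by −1.20 outside and −1.32 within, and Rbbp4 by 1.20 outside and 1.32 within. Of the 59 oxidative phosphorylation genes 37 fell outside the hypothalamus and 8 within it, beside 21.2% and 7.97% of all features. One array of the hypothalamus, ACTH gratified replicate 4, had a mean correlation of 0.77 with the others of its group. Those others had 0.90 to 0.92. Its share of tied values was 31.1%. The counts of the hypothalamus against its controls without this array were not tested.

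The difference between the tissues was itself tested, as the effect in the rest of the brain minus that in hypothalamus. Both tissues were taken from each animal, but no label ties arrays to animals, so the test treated the tissues as unpaired. In limma's test 0 features passed (0%), 990 had an unadjusted p under 0.05, and with array weights 2 passed. Among features of smallest p not tied on most arrays, 1 feature of Ascc2, a subunit of a DNA repair complex, had −0.51 ± 0.12 (adjusted p = 0.317), from −0.74 outside the hypothalamus and −0.23 within it. A count of 0 does not show that the tissues responded alike.

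Near the threshold the differences were small. The features with the weakest calls that rose included Apaf1 (0.27, adjusted p = 0.0497) and Cd274 (0.16, adjusted p = 0.049), and those that fell included Atp6v1g1 (−0.24), Cnn2 (−0.18) and Zfp148 (−0.25).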

How the data were processed

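Each deposited value is a log2 ratio of tissue (Cy5) over universal mouse reference RNA (Cy3) for 1 array feature. Per the submitters' processing notes the authors used limma. Its version, the background correction and the normalization are not given in these sources, and the log base was taken as 2 from the range of values. Per the labels' protocols, RNA of the hypothalamus and of the rest of the brain was extracted from each animal by a TRIZOL and RNeasy method. Columns of per-sample values tied to no sample numbered 0.

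From these values group means were fitted over the 21 brain arrays (lmFit and eBayes, limma 3.58.1 in R 4.3.3), with two-sided tests and Benjamini-Hochberg adjustment over all 9554 features at 0.05. The test of the tissue difference used all 44 arrays. Tied shares were compared by an exact permutation test (scipy 1.17.1, Python 3.11.15, pandas 2.3.3). The fitting code was tested on simulated data. Array data give no counts, so the number of arrays limits precision.

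Feature names follow RefSeq's mouse genes: 8651 features matched by symbol and 579 by synonym, 29 matched several genes and 295 none. A gene with several features entered a list by the one tied on the fewest brain arrays, then by the highest mean. Genes named were the 15 largest rises and falls that were not tied on most arrays and whose groups did not overlap, up to 4 list members of smallest p with members central to the tissue or treatment, 5 tied features each way, 6 features of each further comparison, and 5 calls each way next to the threshold. Some genes that this rule names are not reported here. A few further list members and second features were named after their values were seen. The members and the 40 gene lists were chosen with earlier results of these data known.

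Alternatives were quantile normalization, array medians at 0, centring on never-tied features (chosen after seeing the data), tied features left out or tied values set to missing, array weights, a trend with a robust prior, only the compared groups, the replicate number as a block, and each array left out. Of pairs of gratified and control arrays with the same number, deviations correlated at 0.011, −0.014, −0.064 and −0.026, so the numbers did not pair the samples.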

Additional observations from a re-analysis of the deposited data

Results flagged for a closer look

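In 96 groups of 4 or 5 arrays, 9 held 1 array far from the rest of its group by Dixon's test at its 95% value, where chance gives about 1 in 20. Gratified replicate 3 was the distant array for 5 genes, at −1.89 for Raly, 0.072 for Wdr13, 0.63 for Arc, 2.35 for Ppp1r1b and −0.47 for Atp1b3. It was nearer to the controls for Raly and Atp1b3 and farther from them for Wdr13. Gratified replicate 4 was distant for Mlf2, at −0.87, and control replicate 2 for the dopamine receptor Drd2, at 0.59. Gratified replicate 5 had the largest share of tied values, 27.1%. The lowest median log2 ratio of the control arrays was −0.23. The falls of Raly, Wdr13, Mlf2 and Atp1b3 passed with each array left out in turn.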

How the results depend on the processing

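The count of 3126 features for gratified against control brains stayed within 1.5 times under every alternative run, from 2104 without control replicate 3 to 4134 with array weights, and was 2750 with the replicate number as a block. The replicate block gave 5 features for gratified against ACTH brains and 485 against furosemide gratified brains, and the numbers did not pair the samples. For gratified against ACTH brains the count of 6 was 1 with only the groups compared, 22 with array weights and 10 with a trend and robust prior, and 5 to 41 with 1 array left out. Against furosemide gratified brains the count of 944 was 596 after quantile normalization, 396 with only the groups compared and 2368 with array weights, and 380 to 1733 with 1 array left out. For the difference between tissues the count of 0 was 2 with array weights and 0 to 8 with 1 array left out, the highest without control replicate 1 of the brain. The difference in tied shares was 13.5 to 17.97 percentage points with 1 array left out (exact permutation p between 0.0286 and 0.0357). Rounding to 2 decimals made nearly every value tied, 99.3% on gratified and 99.5% on control arrays, and the difference was then −0.17 points (exact permutation p = 0.0159). The causes of the other shifts were not tested.

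Of 42 list medians, the combined oxidative phosphorylation and proteasome lists included, 15 changed sign with the centring on never-tied features, 11 after quantile normalization, 3 with array weights, 2 with tied values missing and 0 to 4 under each other alternative. Among them were astrocyte (0.11) and pan-neuronal genes (0.088) after quantile normalization, pan-neuronal (0.072) and red blood cell genes (0.10) with the centring, and renin-angiotensin and water balance genes (−0.048) with tied values missing. Of 223 named features, Mcm7 (MCM7gs, 0.0011) and Cnn2 (CNN2gs, 0.0086) changed sign with that centring, which also ended 35 calls and added 14. Quantile normalization ended 25 calls and added 5, and the block ended 16 and added 5. In 2007 fits with 1 array left out, 159 calls were lost and 31 gained.

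The deposited log ratios hold no signal over background, so no feature is called undetected. The log base and the authors' normalization are not known here, ACTH treatment and the number series of the arrays cannot be told apart, and sizes of tied features carry no meaning as levels. Groups of 4 and 5 arrays limit the precision.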
